A study of Mus musculus with 6 samples.

Results

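The insulin-like growth factor (IGF) genes examined here are the ligand genes Igf1 and Igf2, the receptor genes Igf1r and Insr, and the binding protein genes Igfbp2 to Igfbp7. They were read in mouse cortical neurosphere cultures, floating clusters of neural precursor cells, in which the microRNA miR-335 was blocked. A gene probe was taken when the platform's annotation gave it a single symbol among these 10 genes, which left 14 of 34967 gene probes. Of the 10 genes, 4 (Igf1r, Insr, Igfbp4 and Igfbp5) had a pair of probes each and 6 had 1. A further probe, shared between Igfbp3 and Eif5a, was not used. The genes were chosen on their intensity differences between the same 2 groups, as seen in earlier results, so these differences are a description.

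The anti-miR-335 cultures (3 arrays) were transfected with a 2'-O-methyl modified antisense oligonucleotide against miR-335. The control cultures (3 arrays) received a modified nonsense oligonucleotide that the labels name after EGFP. For both groups, tissue was the dorsal telencephalon, the future cortex, taken from C57BL/6 mice on embryonic day 12.5. The medium was the same and serum-free, and held 20 ng/ml each of bFGF and EGF, LIF at 0.15 ng/ml, heparin, 20 nM progesterone and a supplement of insulin, transferrin and selenium, so every culture received insulin, a ligand of Insr. The labels do not say how many fetuses were pooled, and they give the duration of transfection without a unit. What was repeated between the replicates, which the labels call independent, is not stated. The p-values therefore reflect the spread among these 6 arrays, which may be technical. RNA was read on single-colour CodeLink arrays, 1 per labelled replicate, so n counts arrays. An intensity of 1 is about the median of its array.

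IGF1 and IGF2 are secreted growth factors that act mainly through the receptor tyrosine kinase IGF1R, and IGF2 also binds an isoform of the insulin receptor. Binding proteins hold the ligands outside the cell, where they can limit or prolong access to the receptor, and proteases release the ligands again. In the embryonic cortex, IGF signalling is known for promoting the division and survival of neural precursors. A microRNA pairs through bases 2 to 8, its seed, with messenger RNAs and lowers their level or translation. The mature sequences of both arms of miR-335 are shown because they are the target of the transfected oligonucleotide, although the labels do not say which arm it pairs with. They lie on chromosome 6 (GRCm38.p6, RefSeq), plus strand, at chr6:30741314-30741336 for the 5p arm and chr6:30741354-30741375 for the 3p arm, and the seed is in capitals.
mmu-miR-335-5p: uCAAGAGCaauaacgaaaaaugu
mmu-miR-335-3p: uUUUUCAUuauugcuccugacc
Levels of miR-335 were not analysed here, so the block has no check of its own.

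The arrays differed in one respect that touches the values that follow. Control replicate 1 stood apart from the other controls: the 10 immediate early genes examined, whose transcription responds quickly to stimulation, summed to 238 there, against 135 and 139 on control replicates 2 and 3, and to 288 to 397 on the anti-miR-335 arrays. Of these genes, Atf3 and Fosb were not raised on control replicate 1. Atf3 lay at 0.402 there, against 1.12 and 1.17 on control replicates 2 and 3, and Fosb at 1.96, against 1.99 and 2.14. Intensities that exceeded the median of an array's negative control spots by 3 scaled median absolute deviations, a limit between 0.492 and 0.692, were called above background. All 8 neural precursor markers examined were above that limit on all 6 arrays. Their summed intensity was 262 to 296 in anti-miR-335 cultures and 246 to 248 in controls, without overlap. Hes5 (4.44 ± 0.0680 in anti-miR-335 cultures and 2.60 ± 0.434 in controls, mean ± SD, n = 3 each) and Fabp7 (110 ± 2.59 in anti-miR-335 cultures and 90.1 ± 8.62 in controls) lay higher without overlap. The groups overlapped for the rest of the list, among them Sox2 (35.6 ± 9.52 in anti-miR-335 cultures and 32.9 ± 9.47 in controls) and Nes (8.70 ± 0.696 in anti-miR-335 cultures and 9.62 ± 0.468 in controls). Among markers of other cells, the meningeal gene Foxc1 (6.85 ± 0.701 in anti-miR-335 cultures and 6.16 ± 1.085 in controls) and the microglial gene Trem2 (3.27 ± 0.127 in anti-miR-335 cultures and 4.85 ± 0.221 in controls) were above background on all 6 arrays. The collagen genes Col1a1, Col1a2 and Col3a1, the endothelial gene Pecam1, the choroid plexus gene Ttr and the leukocyte gene Ptprc were not above background on any array. Other markers of the same lists were: the endothelial gene Kdr, the choroid plexus gene Clic6 and the microglial gene Cx3cr1 on 5 of 6 arrays. The endothelial genes Cldn5 and Tek and the mesenchymal gene Pdgfrb were above it on 3. In bulk RNA, fewer cells of a type and less RNA per cell cannot be told apart.

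Over all gene probes, 0 of 34847 (0.0%) passed an adjusted p of 0.05 by limma with Benjamini-Hochberg adjustment, and 0 of the 14 IGF probes did, in either direction. At an unadjusted p under 0.05, 3 IGF probes lay lower in anti-miR-335 cultures and 0 higher, where 4.17% of all probes lay lower and 4.91% higher. The group values did not overlap for 4 IGF probes, all lower in anti-miR-335 cultures, where 7.25% of all probes lay wholly lower and 7.46% wholly higher. These 4 were probes of Igfbp2, Igfbp4, Igfbp7 and Igf1r. The rule chose genes with this contrast known, so nothing is read from the counts. The median log2 difference, anti-miR-335 minus control, was -0.13 over the 14 IGF probes and 0.01 over all probes. Control replicate 1 decides the count over all probes: without it, 1100 of 34654 probes passed (3.17%), 786 of them higher (2.27%) and 314 lower (0.906%), and 1 of the 14 IGF probes, Igfbp7, was among the lower ones.

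**Figure D1:**
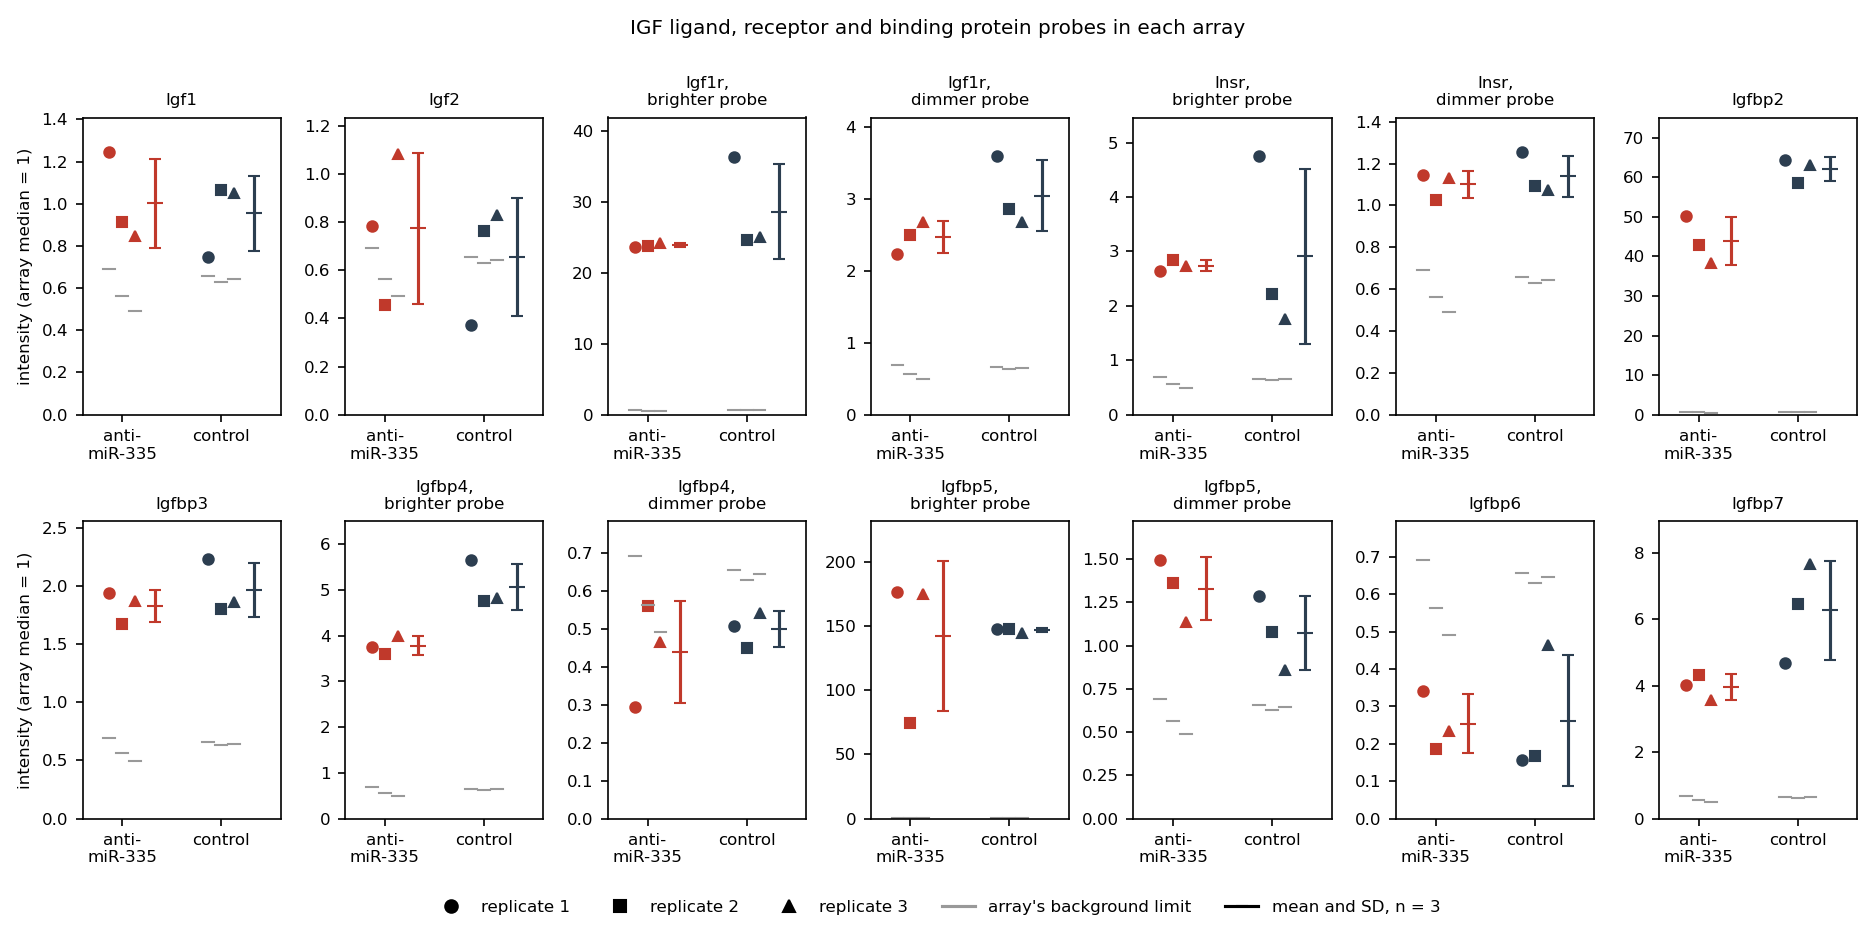
Intensity of each IGF probe in units of the array median, on a linear axis from 0, with 3 anti-miR-335 arrays on the left and 3 controls on the right of each panel. Symbols mark the replicate, bars give the mean and SD, and grey ticks give each array's background limit. The anti-miR-335 values of Igfbp2, of Igfbp7 and of the brighter Igfbp4 probe lie below all their control values, and 1 anti-miR-335 value of the brighter Igfbp5 probe (74.7) lies far under the others.

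Neither ligand gene was far above background. Igf1, the gene of the ligand with the highest affinity for IGF1R, had intensities of 1.24, 0.914 and 0.849 in anti-miR-335 replicates 1, 2 and 3, against 0.749, 1.06 and 1.05 in control replicates 1, 2 and 3. The highest and the lowest value were the replicate 1 arrays of the 2 groups, and the groups overlapped. The log2 difference was 0.07 ± 0.24 (SE), with a 95% interval from -0.46 to 0.60 (adjusted p = 0.956 by limma). Leaving out control replicate 1 turned its sign, to -0.10 ± 0.23.

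Igf2, the imprinted ligand gene, was above background on 2 of 3 arrays in each group. It lay at 0.785, 0.457 and 1.08 in anti-miR-335 cultures, against 0.373, 0.7625 and 0.831 in control cultures. The values of the groups overlapped, with the highest in anti-miR-335 cultures and the lowest in control cultures. The log2 difference was 0.24 ± 0.39 (adjusted p = 0.892 by limma). It was -0.13 ± 0.35 without control replicate 1. For this probe the scanner output describes a sequence tag resembling an IGF2-associated protein, while the platform's annotation names Igf2, and the identity given here follows the annotation. The 95% interval, from -0.63 to 1.11 on the log2 scale, was wide and held 0, so no direction is read from it. The smallest detectable difference was not computed.

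Igf1r, the receptor tyrosine kinase that carries most IGF signalling, was read by a brighter and a dimmer probe. The brighter probe lay at 23.7, 23.9 and 24.3 in anti-miR-335 cultures, against 36.3, 24.6 and 25.0 in control cultures. Every anti-miR-335 value was below every control value, but the gap to the nearest control was small and control replicate 1 alone was high. The log2 difference was -0.23 ± 0.15 (adjusted p = 0.671 by limma) and became -0.05 ± 0.08 without control replicate 1, still without overlap. The anti-miR-335 arrays were close to each other, with a coefficient of variation of 1.21%, against 23.2% in control cultures.

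The dimmer Igf1r probe lay at 2.23, 2.49 and 2.68 in anti-miR-335 cultures, against 3.60, 2.85 and 2.67 in control cultures. The groups met at their edge, since the highest anti-miR-335 value just exceeded the lowest control. Its log2 difference was -0.29 ± 0.15 (adjusted p = 0.605 by limma), and -0.17 ± 0.13 without control replicate 1. Both Igf1r probes therefore pointed the same way with and without that array, and with the smaller difference without it. RefSeq lists the name of the clone behind the brighter probe as a synonym of Igf1r.

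Insr, the insulin receptor gene, also had its highest value on control replicate 1. Its brighter probe lay at 2.63, 2.845 and 2.74 in anti-miR-335 cultures, against 4.75, 2.22 and 1.76 in control cultures. The coefficient of variation was 3.85% in anti-miR-335 cultures and 55.3% in control cultures, which spread on both sides of them. The log2 difference over all arrays was 0.05 ± 0.30 (adjusted p = 0.975 by limma). Without control replicate 1 it was 0.47 ± 0.14, every anti-miR-335 value lay above the remaining controls, and the probe still did not pass (adjusted p = 0.101 by limma). Control replicate 1 lay 1.27 above control replicates 2 and 3 on the log2 scale, at the 98.4th percentile of the same difference over all tested probes.

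The dimmer Insr probe did not share that spread. It lay at 1.14, 1.03 and 1.13 in anti-miR-335 cultures, against 1.25, 1.09 and 1.07 in control cultures. The groups overlapped, the log2 difference was -0.05 ± 0.18 (adjusted p = 0.960 by limma), and it was 0.02 ± 0.19 without control replicate 1. The scanner output names the brighter probe after a RIKEN gene that RefSeq lists as a synonym of Insr, and the dimmer one after Insr itself. Over the 4 receptor probes the median log2 difference was -0.14 with all arrays and -0.01 without control replicate 1.

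**Figure D2:**
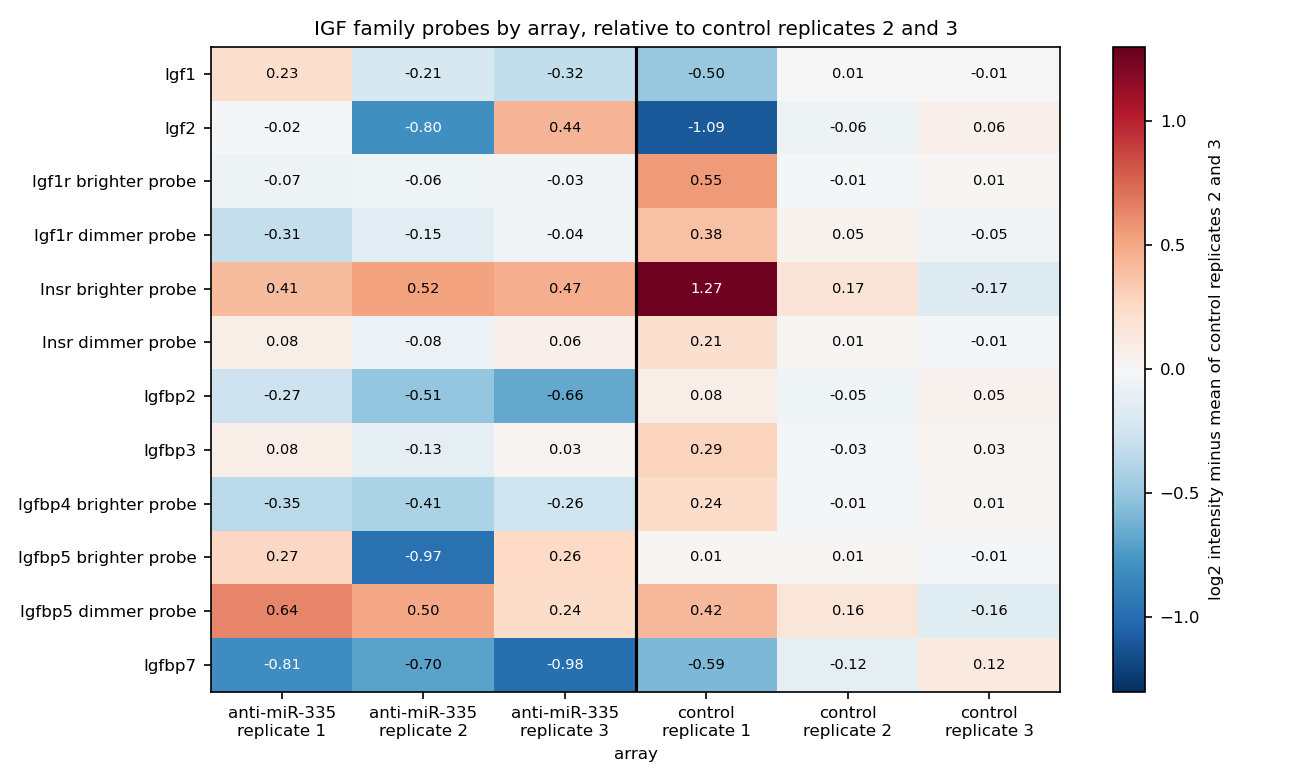
Log2 intensity of the 12 IGF probes above background on at least 3 arrays, by array, minus the mean of control replicates 2 and 3, with the anti-miR-335 arrays left of the line and the controls right of it. Red is higher and blue lower, and control replicates 2 and 3 mirror each other because their mean is the zero point. Control replicate 1 is high for both Igf1r probes (0.55 and 0.38) and for the brighter Insr probe (1.27), and Igfbp2, Igfbp4 and Igfbp7 are below 0 on all 3 anti-miR-335 arrays.

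Binding protein genes gave the IGF probes with the smallest p. Igfbp2 encodes a secreted binding protein that prefers IGF2. It lay at 50.3, 42.8 and 38.4 in anti-miR-335 cultures, against 64.4, 58.6 and 63.2 in control cultures. All anti-miR-335 values were below all control values, with a gap between the groups wider than the spread of the controls. The means were 43.8 ± 6.01 in anti-miR-335 and 62.0 ± 3.06 in control cultures (SD, n = 3 each), a log2 difference of -0.51 ± 0.12 with a 95% interval from -0.78 to -0.24, or 0.703-fold. Igfbp2 stood at rank 158 of 34847 probes by p and did not pass (adjusted p = 0.394 by limma). Without control replicate 1 the difference was -0.48 ± 0.12, also short of the threshold (adjusted p = 0.0689). It passed when the whole replicate 1 pair was left out, with a difference of -0.58 ± 0.11 (adjusted p = 0.0385 by limma), a setting in which 4.57% of all probes passed, 3.52% higher and 1.05% lower.

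Igfbp7 encodes a secreted, matrix-associated protein that binds IGFs with lower affinity than the classical binding proteins. It lay at 4.01, 4.33 and 3.55 in anti-miR-335 cultures, against 4.68, 6.46 and 7.65 in control cultures. The groups did not overlap, and control replicate 1 lay nearer to the anti-miR-335 arrays than to the other controls. The means were 3.96 ± 0.388 in anti-miR-335 and 6.26 ± 1.496 in control cultures (SD, n = 3 each), a log2 difference of -0.64 ± 0.17 with a 95% interval from -1.02 to -0.25 (adjusted p = 0.413 by limma). Without control replicate 1 the difference was -0.83 ± 0.12, which passed (adjusted p = 0.0188 by limma) in a setting where 3.17% of all probes did. That array was the control nearest to the anti-miR-335 arrays, and leaving out any other single array gave adjusted p-values between 0.475 and 0.886. The scanner output describes this probe as a sequence tag resembling an RNA polymerase II subunit, whereas the platform's annotation names Igfbp7. Its identity rests on that annotation.

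Igfbp4, whose product is known mainly as an inhibitor of IGF action until the protease PAPP-A cleaves it, was above background with its brighter probe. That probe lay at 3.76, 3.60 and 3.998 in anti-miR-335 cultures, against 5.65, 4.75 and 4.82 in control cultures. The groups did not overlap, with or without control replicate 1, which was the highest array. Means of 3.78 ± 0.2005 in anti-miR-335 and 5.07 ± 0.502 in control cultures (SD, n = 3 each) gave a log2 difference of -0.42 ± 0.12 with a 95% interval from -0.69 to -0.15 (adjusted p = 0.418 by limma). It was -0.34 ± 0.10 without control replicate 1 (adjusted p = 0.102 by limma). The dimmer Igfbp4 probe, at 0.294 to 0.559 in anti-miR-335 cultures and 0.450 to 0.542 in control cultures, stayed under the background limit on every array, so no fold is given for it. The 3 probes for Pappa, the gene of PAPP-A, also stayed under it on every array.

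RefSeq's promoter table for build GRCm38.p6 held an entry for 9 of the 10 genes, all but Insr. The 250 bases before the annotated start (the upstream one where Igfbp2 has a pair) are shown for the 4 genes with a probe whose values lay wholly lower in anti-miR-335 cultures (the brighter of the pair for Igfbp4 and Igf1r), with matches on either strand to the TATA box (TATAAA), the GC box (GGGCGG) and the CCAAT box (CCAAT) in capitals. The windows are chr1:72824230-72824479 on the plus strand for Igfbp2, chr5:77408046-77408295 on the minus strand for Igfbp7, chr11:99040994-99041243 on the plus strand for Igfbp4 and chr7:67952007-67952256 on the plus strand for Igf1r.
Igfbp2: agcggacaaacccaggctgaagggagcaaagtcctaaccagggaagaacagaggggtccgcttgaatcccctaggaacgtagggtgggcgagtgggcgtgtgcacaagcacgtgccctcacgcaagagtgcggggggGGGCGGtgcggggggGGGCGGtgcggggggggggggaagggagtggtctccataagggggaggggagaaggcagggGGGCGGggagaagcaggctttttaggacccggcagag
Igfbp7: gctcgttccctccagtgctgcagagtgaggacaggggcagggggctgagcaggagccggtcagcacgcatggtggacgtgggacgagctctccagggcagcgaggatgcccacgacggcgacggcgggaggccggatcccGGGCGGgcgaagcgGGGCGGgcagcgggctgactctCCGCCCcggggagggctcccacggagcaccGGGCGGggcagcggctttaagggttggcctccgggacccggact
Igfbp4: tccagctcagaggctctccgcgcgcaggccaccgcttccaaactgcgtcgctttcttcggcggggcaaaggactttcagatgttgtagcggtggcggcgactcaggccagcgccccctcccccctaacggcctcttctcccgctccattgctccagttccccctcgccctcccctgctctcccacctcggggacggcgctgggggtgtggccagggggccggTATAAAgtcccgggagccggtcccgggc
Igf1r: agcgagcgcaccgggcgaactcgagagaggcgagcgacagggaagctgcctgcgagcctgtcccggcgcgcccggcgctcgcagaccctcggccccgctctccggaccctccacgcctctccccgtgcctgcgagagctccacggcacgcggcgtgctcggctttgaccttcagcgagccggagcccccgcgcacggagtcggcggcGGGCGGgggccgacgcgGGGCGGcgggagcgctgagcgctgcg
Igfbp2 held 3 GC boxes, Igfbp7 held 4 and Igf1r held 2, while Igfbp4 held 0 GC boxes and 1 TATA box. Over all 32851 promoter windows of the table, 32.7% held a GC box, 12.4% a TATA box and 33.8% a CCAAT box. The 4 windows had GC contents of 67.2% to 77.6%, against a median of 52.4% over all windows. The downstream Igfbp2 window, not shown, held 0 GC boxes and had a GC content of 56.4%. Windows of the other IGF genes ran from 47.6% (1 of Igf2) to 73.2% (Igfbp3), so a high GC content was not particular to these 4 genes. A match describes the letters in the window and is not a bound site.

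Igfbp5 is a binding protein gene whose product also attaches to extracellular matrix. Its brighter and dimmer probes had log2 differences of opposite sign with all arrays. The brighter probe lay at 177, 74.7 and 175 in anti-miR-335 cultures, against 148, 148 and 145 in control cultures. Anti-miR-335 replicate 2 stood alone below the other 5 arrays, while the other anti-miR-335 arrays were above every control. The log2 difference was -0.15 ± 0.28 (adjusted p = 0.905 by limma) and turned to 0.26 without anti-miR-335 replicate 2. Among the 733 probes with a mean intensity of at least 50, this one had the lowest anti-miR-335 replicate 2 value relative to the other anti-miR-335 arrays, at -1.24 on the log2 scale. Scanner output for that array was not analysed here, so the spot's quality flag is unknown.

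The dimmer Igfbp5 probe, annotated to the gene's RefSeq transcript, lay at 1.49, 1.36 and 1.14 in anti-miR-335 cultures, against 1.28, 1.08 and 0.860 in control cultures. Replicate 2 of the anti-miR-335 arrays was not low there. The groups overlapped, and the log2 difference was 0.32 ± 0.21 (adjusted p = 0.685 by limma), or 0.46 ± 0.21 without control replicate 1 and 0.17 without control replicate 3. Neither probe passed.

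Of the remaining binding protein genes, Igfbp3 was above background on all 6 arrays and Igfbp6 was not. Igfbp3, which encodes the main carrier of IGFs in serum, lay at 1.94, 1.68 and 1.87 in anti-miR-335 cultures, against 2.24, 1.80 and 1.86 in control cultures. The groups overlapped, and the log2 difference was -0.10 ± 0.16 (adjusted p = 0.884 by limma), with a 95% interval from -0.45 to 0.25. It was -0.0038 without control replicate 1 and -0.04 without anti-miR-335 replicate 2. Igfbp6, the gene of a binding protein with a strong preference for IGF2, ranged from 0.187 to 0.340 in anti-miR-335 cultures and from 0.156 to 0.463 in control cultures. No array had it above background, so no fold is given. Across the 6 binding protein probes above background, 5 log2 differences were negative and 1 positive, both with all arrays and without control replicate 1. The Igfbp5 probes counted in opposite directions, and Igfbp3 counted as negative at -0.0038 without that array. Over all probes above background on at least 3 arrays, 9737 of 21956 were negative with all arrays. The genes were chosen with this contrast known, so nothing is read from the count. The median of the 6 was -0.29 with all arrays and -0.24 without control replicate 1.

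**Figure D3:**
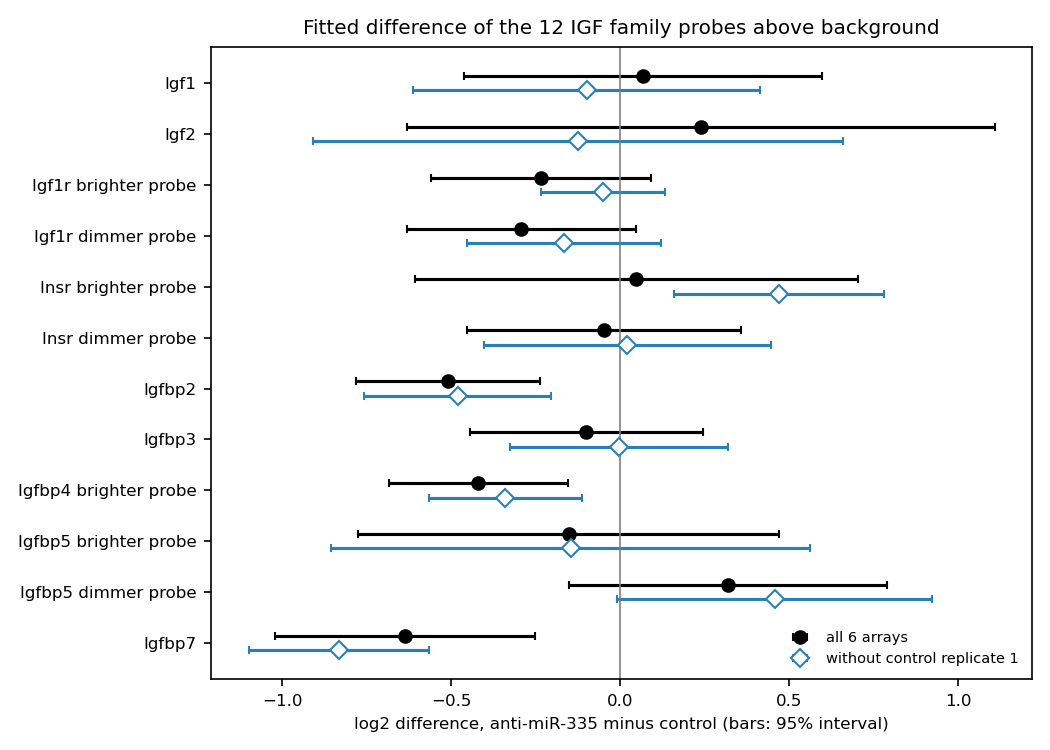
Log2 difference, anti-miR-335 minus control, of the 12 IGF probes above background on at least 3 arrays, with 95% intervals, from all 6 arrays (filled circles) and without control replicate 1 (open diamonds). The intervals of Igfbp2, Igfbp7 and the brighter Igfbp4 probe lie below 0 in both, at -0.51, -0.64 and -0.42 with all arrays, while the brighter Insr probe moves from 0.05 to 0.47 without control replicate 1.

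Other genes of the pathway were taken from a list of 41, of which 31 were measured, by 36 probes. By limma over all probes, 0 of the 36 passed with all arrays (0.0% of all probes did), and at an unadjusted p under 0.05, 1 lay higher and 3 lower (4.91% and 4.17% of all probes). Without control replicate 1, 1 of the 36 passed, a share near the 3.17% of all probes that did. The median log2 difference was 0.04 over the 36 probes, against 0.01 over all probes. Probes for the PI3K, AKT and mTOR branch had a median of 0.07 over 12, and docking proteins and adaptors 0.11 over 9. The median was 0.10 over 7 probes for proteases and their inhibitors. It was -0.29 over 5 for further ligands, receptors and binding proteins, and -0.29 over 3 for IGF mRNA binding proteins. The probe that passed without control replicate 1 was Tsc2, a brake on mTOR, singled out after its values were seen. It lay at 42.1, 47.4 and 46.1 in anti-miR-335 cultures, against 50.8, 32.7 and 32.8 in control cultures, a log2 difference of 0.25 ± 0.17 with all arrays and 0.46 ± 0.10 without control replicate 1 (adjusted p = 0.0365 by limma).

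Outside the cell, Htra1, a secreted serine protease known to cleave IGF binding proteins, had the smallest p of the list. It lay at 24.2, 21.1 and 20.1 in anti-miR-335 cultures, against 28.6, 28.4 and 28.4 in control cultures. The groups did not overlap and the controls differed little, for a log2 difference of -0.39 ± 0.10 (adjusted p = 0.412 by limma), and -0.39 without control replicate 1 (adjusted p = 0.0694). Igf2r, which clears IGF2 into lysosomes, lay at 13.1, 13.2 and 13.5 in anti-miR-335 cultures, against 20.0, 14.6 and 14.7 in control cultures. As for Igf1r, control replicate 1 alone was high, and the log2 difference was -0.29 ± 0.13 (adjusted p = 0.546 by limma), or -0.14 without that array. Igfbpl1, a relative of the binding protein genes, averaged 1.17 ± 0.0434 in anti-miR-335 cultures and 0.917 ± 0.148 in control cultures, a log2 difference of 0.36 ± 0.20, or 0.22 without control replicate 3. Igfbp1, above background on 5 of 6 arrays, differed by -0.60 ± 0.38, and by -0.15 without anti-miR-335 replicate 1, its 1 value under background. The secreted metalloproteinase gene Adamts1 differed by 0.55 ± 0.26, by 0.84 without anti-miR-335 replicate 1 and by 0.33 without anti-miR-335 replicate 3.

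Inside the cell, Grb14, an adaptor that inhibits the insulin receptor, lay at 1.28, 1.31 and 1.54 in anti-miR-335 cultures, against 0.651, 0.590 and 1.14 in control cultures. The groups did not overlap, but only 1 of 3 controls was above background, and the log2 difference was 0.85 ± 0.27 (adjusted p = 0.450 by limma). Gab1, a docking protein, averaged 14.5 ± 2.19 in anti-miR-335 cultures and 11.9 ± 2.05 in control cultures, which overlapped. Igf2bp3, which encodes a protein that binds Igf2 mRNA, lay at 2.00, 2.16 and 1.78 in anti-miR-335 cultures, against 2.18, 2.59 and 2.80 in control cultures. Those groups did not overlap, and the log2 difference was -0.35 ± 0.15 (adjusted p = 0.546 by limma). Irs1, a docking protein of both receptors that was singled out after its values were seen, repeated the pattern of the brighter Insr probe on control replicate 1, with 42.2, 43.1 and 44.3 in anti-miR-335 cultures and 63.3, 37.4 and 36.0 in control cultures. The part of control replicate 1 in these values was not tested beyond leaving it out.

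**Figure D4:**
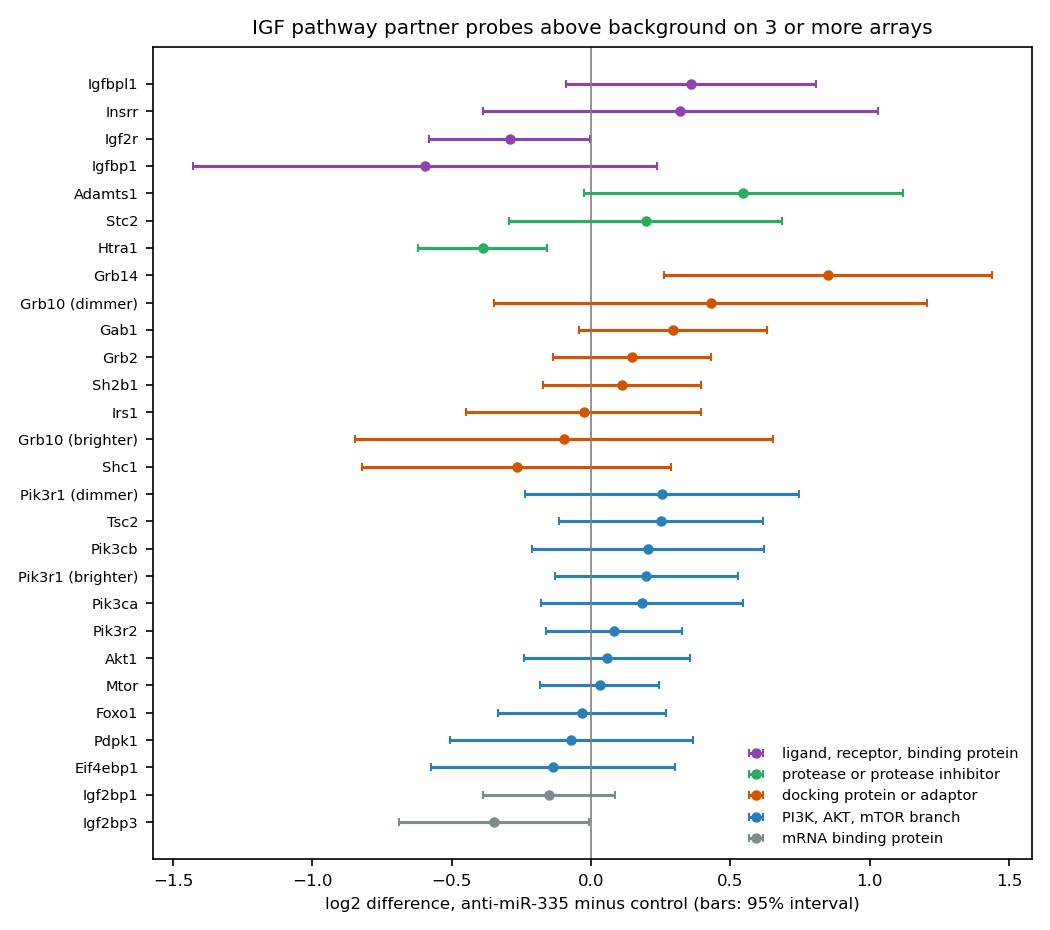
Log2 difference, anti-miR-335 minus control, with 95% intervals, of the 28 pathway probes above background on at least 3 arrays, coloured by role. The intervals of Htra1 (-0.39), Igf2bp3 (-0.35) and Igf2r (-0.29) lie below 0 and that of Grb14 (0.85) above it, and all the others cross 0.

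For the 3 IGF probes of smallest p that were above background on all 6 arrays, the most similar genes were sought among 12135 single-symbol probes above background on all arrays. Likeness was Pearson's r of the 6 log2 values and describes these arrays only. Igfbp2 was closest to Itih5 (0.992), Htra1 (0.988) and Snrnp200 (0.987). Igfbp7 was closest to Ncbp3 (0.998), Pbx2 (0.996) and Parp12 (0.996), and the brighter Igfbp4 probe to Sft2d2 (0.996), Plvap (0.994) and Caskin1 (0.989). Among the 11 IGF probes above background on all arrays, r was above 0 for 38 of 55 pairs, with a median of 0.26. It was 0.896 between the Igf1r probes and 0.827 between Igfbp2 and the brighter Igfbp4 probe. Igfbp7 gave 0.755 with Igfbp2 and 0.538 with that Igfbp4 probe. These binding protein probes were taken for their small p between the groups, and all were lower in anti-miR-335 cultures. That choice favours r above 0 among them when the arrays of both groups are used. Likeness within a group was not tested, and the pairs were not set against other probes, so nothing is read from these r. The nearest genes of Igfbp7 followed its order within control cultures, which the choice by r over the 6 arrays favours, so nothing is read from it. Ncbp3 lay at 10.8, 11.2 and 9.92 in anti-miR-335 cultures, against 12.4, 15.6 and 18.4 in control cultures.

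Markers of other cell types were set beside these values because IGF ligand and binding protein genes are also known from meninges, vessels and choroid plexus. Meningeal and mesenchymal markers, 2 of 8 above background on at least 3 arrays, summed to between 8.37 and 9.42 in anti-miR-335 cultures and between 7.60 and 9.42 in control cultures. Choroid plexus markers, 1 of 4, summed to 1.76 to 1.94 in anti-miR-335 and 1.68 to 2.48 in control cultures. In both lists the overlap came from control replicate 1, at 9.42 for the meningeal and 1.68 for the choroid plexus list. Control replicates 2 and 3 lay at 7.60 to 8.17, under the anti-miR-335 sums, and at 2.33 to 2.48, over them. For endothelial markers, 3 of 6, the sums were 1.86 to 3.29 in anti-miR-335 and 2.66 to 3.53 in control cultures. Microglial and macrophage markers, 2 of 5, summed to 5.14 to 5.39 in anti-miR-335 cultures and 6.31 to 6.69 in control cultures, without overlap. The list did not move one way: Trem2, which made up most of the sum, lay lower in anti-miR-335 cultures, while Cx3cr1 averaged 1.09 ± 0.271 in anti-miR-335 cultures and 0.724 ± 0.122 in control cultures, higher without overlap. Aif1 was above background on 1 array, and Ptprc and Tyrobp on 0. The part of these markers in the IGF values was not tested.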

How the data were processed

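The authors deposited linear intensities for 6 arrays, divided by each array's median, per the labels. Scans were quantified in CodeLink Expression Analysis 4.1.0.29054, per the file headers. Scanner output was used for replicate 1 of each group. There all 36032 (anti-miR-335) and 35976 (control) deposited intensities equalled its normalized intensity within 0.0001, and its raw intensity was the spot mean minus the local background median.

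Deposited intensities below their 5th percentile (0.163) were set to that value before the log2 transform. limma 3.58.1 (R 4.3.3; lmFit, eBayes with intensity trend, two-sided) compared anti-miR-335 with control over 34847 gene probes with at least 2 values per group, with Benjamini-Hochberg adjustment. Names came from the platform's annotation, checked against RefSeq (21487 of 21615 single-symbol probes matched). Of the 14 IGF probes, 4 had another accession in the scanner output: those of Igf2, Igfbp3 and Igfbp7 and the brighter Insr probe. Their names follow the platform's annotation. On both replicate 1 arrays 11 probes were flagged good and 2 low, and the Igf2 probe was flagged low on control replicate 1 only.

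All 14 IGF probes are given. Pathway genes are named by the smallest p among probes above background on at least 3 arrays, up to 8; Tsc2, Pik3ca and Irs1 were added after their values were seen. The members, lists and alternatives were chosen with earlier results of these data known. The fit was tested on simulated data. Same-numbered arrays did not deviate together (correlations of -0.22, -0.04 and -0.15), and the labels do not say what a number marks, so the numbers were not used as pairs in the main comparison. For arrays, their number limits precision, here 3 per group.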

Additional observations from a re-analysis of the deposited data

How the results depend on the processing

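Alternatives were quantile normalization, other floors, dim probes left out, other variance models, array weights, a replicate block and leaving out arrays. The 12 IGF probes above background kept their direction in every alternative, apart from Igf1, Igf2, both Insr probes and the brighter Igfbp5 probe. Igf1 was at -0.11 with array weights and ranged from -0.264 to 0.255 when arrays or pairs were left out. Over the same cases Igf2 ranged from -0.18 to 0.73, the brighter Insr probe from -0.25 to 0.50, the dimmer one from -0.110 to 0.0212, and the brighter Igfbp5 probe from -0.36 to 0.27. The median over the 14 IGF probes ranged from -0.24 (without replicate 3) to -0.0182 (without anti-miR-335 replicate 2). Of the IGF probes, 0 to 2 passed when arrays or pairs were omitted: Igfbp7 without control replicate 1, and Igfbp7 with Igfbp2 without the replicate 1 pair. It gave 0 to 3 called pathway probes: Tsc2 without control replicate 1, and Htra1, Tsc2 and Pik3ca without the pair. With array weights, lowest for control replicate 1 (0.366) and highest for control replicate 2 (2.25), 2 IGF probes (Igfbp7 and Igfbp2) and 1 pathway probe (Htra1) passed. Over all probes, 0 to 1571 passed when arrays were left out, 1571 of them without the replicate 1 pair, and 474 did with array weights, 3 under the robust trend and 1 once quantile normalized. With the replicate block, 0 probes passed, and Igfbp2 had an adjusted p of 0.753, so the block changed no call. Over all alternatives, the adjusted p of Igfbp2 lay between 0.0385 and 0.997, and that of Igfbp7 between 0.0188 and 0.997. On the replicate 1 pair's raw scanner intensities, 3 of 12 log2 differences lay within the replicate SD of the value over all arrays. The deposited intensities are these divided by the array median. That comparison therefore differs from the main one in its arrays, control replicate 1 among them, and says little about the processing. The cause of the shifts under the other alternatives was not tested.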
